A study of Mus musculus with 3 samples.

Results

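The 38 genes described here are immediate early genes and genes of the acute stress responses that enzymatic dissociation and cell sorting are known to switch on. They were taken from a fixed list of gene symbols, matched to the Ensembl identifiers of the count tables, and all 38 were found among 41388 genes. The libraries were made from dorsal root ganglion (DRG) cells of mouse embryos at 12.5 dpc, sorted by flow cytometry on EGFP expressed from Ret. The labels give the strain as C57BL/6 and the genotype as Tg(Ret-EGFP)SJ/, whereas the series text gives heterozygotes with an EGFP knock-in at Ret and the strain C57BL/6J. This was not resolved. Both sexes were pooled, the ganglia came from spinal levels T11 to S1, and the labels set the 3 libraries apart by their pools: 340 ganglia of 17 embryos in B, 300 ganglia of 15 embryos in C and 60 ganglia of 3 embryos in D. There is no second condition. All ganglia were dissociated and sorted, so RNA made in the embryo and RNA made during dissociation cannot be told apart here.

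Immediate early genes are transcribed within minutes of a stimulus from factors already in the cell, without new protein synthesis. Calcium entry, growth factors and mechanical injury reach them through ERK, CREB and the serum response factor, and their products, the AP-1, EGR and NR4A transcription factors, then drive later genes. In sensory neurons the same genes respond to neuronal firing and to axon injury. A separate set, the heat shock and unfolded protein responses, raises chaperones when proteins misfold in the cytosol or the endoplasmic reticulum.

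Library B held 18072199 counts, library C 11666241 and library D 20966139, and mitochondrial genes took between 1.4 and 1.94% of them. All 12 neuron markers listed were detected in every library, that is at 1 TPM or more (TPM is the count per base of gene length, scaled to a fixed total within a library). Levels are given in TPM, and differences between libraries as log2 ratios of normalised counts from edgeR. The TPM scale itself was shifted: over the 15727 genes tested, the median log2 ratio of TPM in D against B and C was 0.66, against -0.02 on the edgeR scale. The library with the highest value was nevertheless the same on both scales for 30 of the 33 genes tested. The exceptions were Hspa8 and Atf3, highest in D by TPM and in B by normalised counts, and Gadd45a, highest in D by TPM and in C by normalised counts. The pools were separate, but p-values compare 1 library with 2 others and rest on 1 residual degree of freedom.

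Of the 38 genes, 28 were detected in every library (73.7%, against 28.7% of all genes in the tables). The median over all 38 was 10.7 TPM in B, 11.1 TPM in C and 18.1 TPM in D. The levels spanned from no counts to 946 TPM. The 5 genes with a mean above 100 TPM were Hspa5, Hspa8, Fos, Atf4 and Klf6. The 5 genes under 1 TPM in each library were Fosl1, Nr4a3, Hspa1a, Hspa1b and Hspb1, and another 5, Fosb, Fosl2, Egr3, Klf2 and Klf4, lay under it in 1 or 2 libraries. Exons of 6 of the 38 (Jun, Jund, Hspa1a, Hspa8, Ddit3 and Gadd45a) overlap those of another gene, and their reads are uncertain because the kit does not mark strand.

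**Figure D1:**
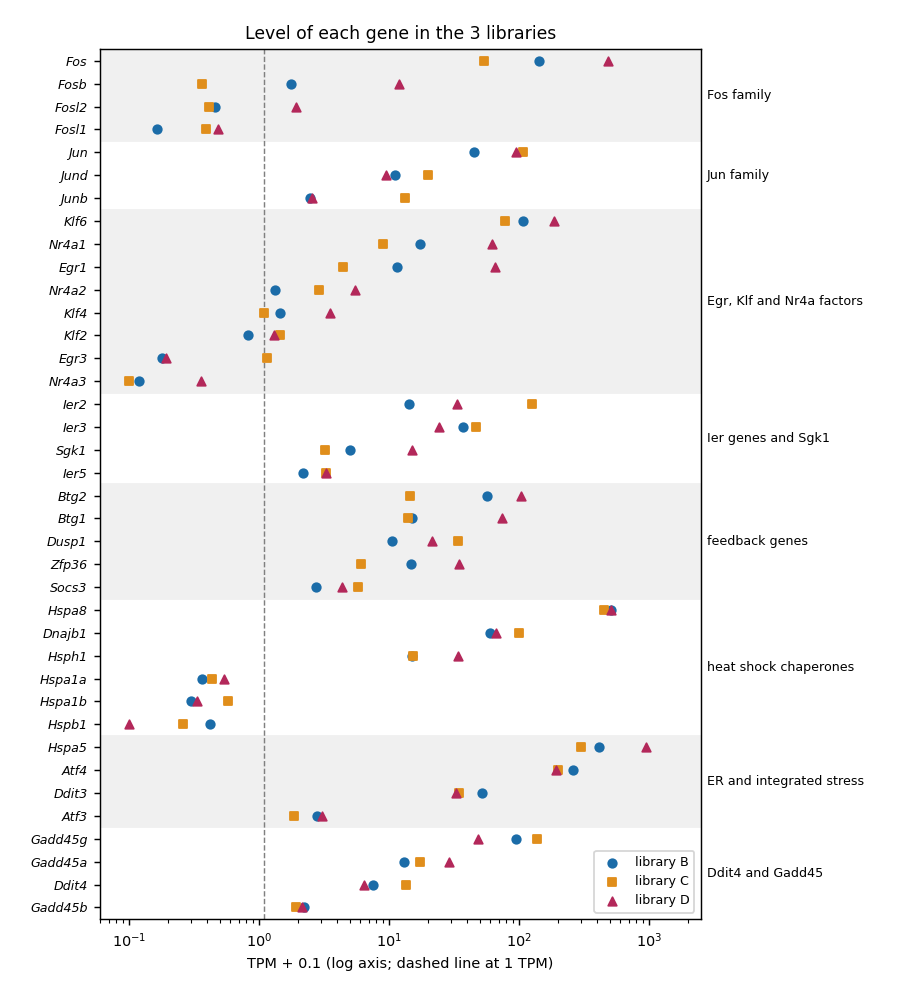
Level of each of the 38 genes in libraries B, C and D, as TPM + 0.1 on a log axis, grouped by role; each symbol is 1 library and the dashed line marks 1 TPM. Hspa5 and Hspa8 lie farthest right, Hspa1a, Hspa1b and Hspb1 lie left of the line in all libraries, and the Fos symbols are spread from 53.3 to 484 TPM.

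AP-1 is a dimer of a Fos and a Jun protein. Fos (ENSMUSG00000021250, chromosome 12, 85473890 to 85477273, GRCm38) stood at 143 TPM in B, 53.3 TPM in C and 484 TPM in D. Its level was thus highest in D and lowest in C, a 9.08-fold range by TPM. Normalised counts, as CPM, kept this order with a narrower range, at 174 in B, 69.4 in C and 375 in D. Fos RNA made up 98.0 ± 0.74% (SD, n = 3) of the summed Fos family TPM. Fosb, whose truncated form accumulates after repeated stimulation of neurons, followed the same order at a far lower level, with 1.66 TPM in B, 0.27 TPM in C and 11.8 TPM in D. Fosb had 56, 6 and 340 counts. Fosl2 stood at 0.36 TPM in B, 0.31 TPM in C and 1.82 TPM in D, and Fosl1 had 1, 3 and 5 counts.

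The Jun family was ordered differently. Jun (ENSMUSG00000052684, chromosome 4, 95049034 to 95052222, GRCm38), the main partner of Fos and a regulator of the response to axon injury, stood at 44.7 TPM in B, 108 TPM in C and 94.8 TPM in D. Junb stood at 2.35 TPM in B, 13.2 TPM in C and 2.47 TPM in D. Jund, which is expressed constitutively in most cells, stood at 10.9 TPM in B, 19.99 TPM in C and 9.38 TPM in D. All Jun family genes were highest in C, the library where Fos and Fosb were lowest. Within a library Jun exceeded Junb in 3 of 3, by a log2 ratio of TPM of 4.18 ± 1.12 (SD, n = 3), and Jund in 3 of 3, by 2.60 ± 0.67. Fos exceeded Jun in B and D, with log2 ratios of 1.67 and 2.35, and not in C, with -1.02.

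The DNA just before the start sites of Fos and Jun is printed because they were the most abundant matched genes of their families. RefSeq windows of 250 bases before the start (build GRCm38.p6) were matched for 33 of the 38 genes, as 40 windows with alternative starts. They were searched on both strands for the cAMP response element (CRE) TGACGTCA, its core TGACGT, the AP-1 site TGANTCA, the heat shock element GAANNTTC, the ER stress element and the CArG box bound by serum response factor. The last 150 bases before each start are shown with matches in capitals. Fos lies at chr12:85473740-85473889 on the plus strand and Jun at chr4:95052223-95052372 on the minus strand.
Fos: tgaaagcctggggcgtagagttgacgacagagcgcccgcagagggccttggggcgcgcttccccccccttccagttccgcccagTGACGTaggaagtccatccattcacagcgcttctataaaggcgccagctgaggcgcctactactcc
Jun: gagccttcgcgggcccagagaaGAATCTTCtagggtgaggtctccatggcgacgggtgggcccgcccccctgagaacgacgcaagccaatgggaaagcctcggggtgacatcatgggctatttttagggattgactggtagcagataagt
The capitals in Fos are TGACGT, 66 bases before the start, and in Jun a heat shock element match 128 bases before it. The core was found in 7 of the 40 windows (Atf3, Btg1, Btg2, Dusp1, Fos, Hspa5 and Nr4a3) and in 6.47% of all 32851 windows in the table. The full CRE contains the core. A match is a description of letters and no evidence of binding.

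**Figure D2:**
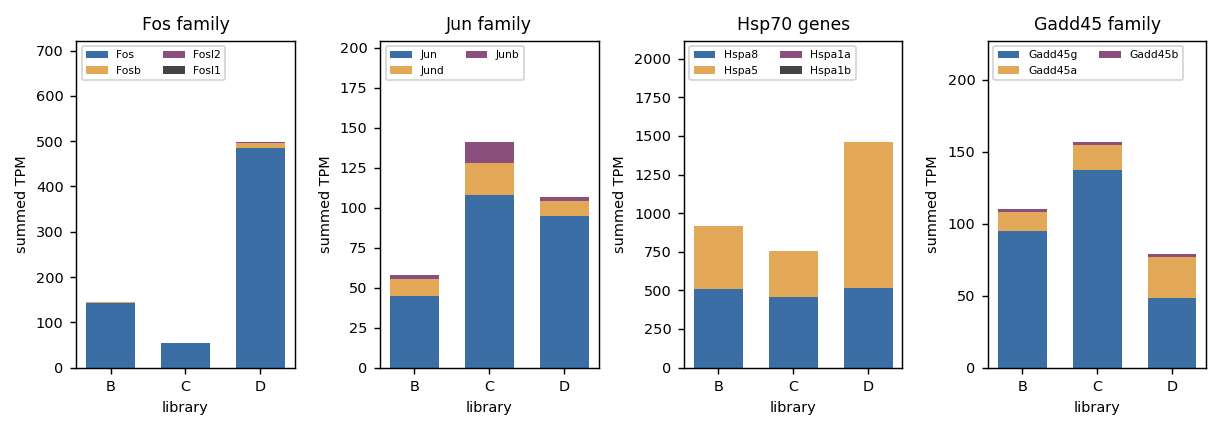
Summed TPM of the Fos, Jun, Hsp70 and Gadd45 genes in libraries B, C and D, stacked by gene. The Fos family bar is almost all Fos and tallest in D, the Jun family bar is tallest in C, and the growth of the Hsp70 bar in D is Hspa5.

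Egr1 and Nr4a1 shared the order of Fos. Egr1, a zinc finger factor induced by ERK and serum response factor, stood at 11.4 TPM in B, 4.31 TPM in C and 64.8 TPM in D. Nr4a1, an orphan nuclear receptor, stood at 17.3 TPM in B, 8.90 TPM in C and 61.7 TPM in D. Both were highest in D and lowest in C, and Fos exceeded Egr1 by log2 ratios of TPM of 3.64, 3.63 and 2.90 in the same order of libraries. Klf6, a zinc finger factor linked to axon growth, was the most abundant of these factors, with 108 TPM in B, 77.7 TPM in C and 186 TPM in D. Klf4 stood at 0.98 to 3.45 TPM and Klf2, a factor known from endothelium, at 0.72 to 1.35 TPM. Nr4a2 ranged from 1.23 TPM in B to 5.40 TPM in D. Egr3, a target of neuronal activity, had 1 count in B, 9 in C and 1 in D. Nr4a3 had 1, 0 and 12 counts, where 0 in C allows up to 0.084 TPM for counting error alone.

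Ier2, an early response gene of uncertain molecular role, set C apart. It stood at 14.2 TPM in B, 125 TPM in C and 33.4 TPM in D, with 195, 1143 and 392 counts. Fos exceeded Ier2 in B and D, with log2 ratios of TPM of 3.33 and 3.86, and not in C, with -1.23. Ier3, which acts in survival signalling, stood at 37.1 TPM in B, 46.9 TPM in C and 24.1 TPM in D. Ier5 ranged from 2.10 to 3.21 TPM. Sgk1, a kinase gene induced by serum and glucocorticoids, stood at 4.88 TPM in B, 3.09 TPM in C and 15.0 TPM in D.

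The feedback genes, taken here with antiproliferative genes and a cytokine inhibitor, split in the same 2 ways, apart from Btg1. Btg2, an antiproliferative gene and p53 target, stood at 57.0 TPM in B, 14.5 TPM in C and 104 TPM in D. Zfp36, whose protein destroys AU-rich early gene RNAs, stood at 14.7 TPM in B, 5.96 TPM in C and 34.5 TPM in D. These were lowest in C and highest in D, as Fos was. Btg1, a relative of Btg2, was nearly equal in B and C, at 14.9 and 14.0 TPM, and stood at 74.5 TPM in D. Dusp1, the phosphatase that inactivates MAP kinases, was highest in C: 10.5 TPM in B, 34.0 TPM in C and 21.2 TPM in D. Socs3, the inhibitor of cytokine receptors, ranged from 2.65 TPM in B to 5.71 TPM in C.

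Btg2 and Dusp1 were the only 2 of the 33 matched genes with a full CRE in the window, so both are shown although C held the lowest Btg2 and the highest Dusp1. The motif was in 1.55% of all windows. Btg2 is shown from chr1:134079156-134079355 and Dusp1 from chr17:26508473-26508652, both on the minus strand of GRCm38.p6, with the CRE in capitals.
Btg2: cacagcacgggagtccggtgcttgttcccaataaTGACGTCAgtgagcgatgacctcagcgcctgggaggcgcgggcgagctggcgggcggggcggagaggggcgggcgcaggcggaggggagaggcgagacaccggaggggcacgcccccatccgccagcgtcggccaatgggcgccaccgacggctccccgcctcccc
Dusp1: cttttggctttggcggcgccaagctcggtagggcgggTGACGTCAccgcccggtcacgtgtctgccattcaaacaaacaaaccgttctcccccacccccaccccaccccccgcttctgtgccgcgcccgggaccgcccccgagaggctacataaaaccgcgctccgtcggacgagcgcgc
The CArG box was found for Zfp36 alone among the 33 and in 1.47% of all windows. It was searched only in these 250 bases.

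Of the 6 heat shock genes, Hspa8, Dnajb1 and Hsph1 were detected in every library, and Hspa1a, Hspa1b and Hspb1 lay under 1 TPM in each. Hspa8, the constitutive Hsc70 chaperone, stood at 509 TPM in B, 454 TPM in C and 514 TPM in D, the narrowest TPM range of the 5 genes above 100 TPM. On normalised counts Klf6 had a narrower range than Hspa8, and D was the lowest for Hspa8, with a log2 ratio of -0.61 against B and C. This ratio was -1.33 once the trend in length and GC was taken out. Dnajb1, the Hsp40 partner of Hsp70 and itself a heat shock target, stood at 59.8 TPM in B, 99.6 TPM in C and 66.2 TPM in D. Hsph1, the Hsp110 exchange factor, stood at 15.0, 15.2 and 33.7 TPM. By contrast Hspa1a, an inducible Hsp70 gene, had 7, 6 and 10 counts and Hspa1b 5, 8 and 5, which is 0.20 to 0.48 TPM. Hspb1, the small chaperone Hsp27 that adult sensory neurons express, had 3, 1 and 0 counts, and 0 in D allows up to 0.38 TPM.

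Counts of Hspa1a and Hspa1b may be understated, because the genes are near copies. Of the windows of 50 bases along the longest GENCODE M21 transcript, 58.8% of those of Hspa1a occur unchanged in Hspa1b and 62.3% of those of Hspa1b in Hspa1a. Reads from those parts cannot be assigned to 1 gene, and how the authors treated them is not given in the sources used here. Upstream, 247 of 250 bases were the same in both genes, so only Hspa1a is shown, at chr17:34972157-34972306 on the minus strand, with its heat shock element in capitals.
Hspa1a: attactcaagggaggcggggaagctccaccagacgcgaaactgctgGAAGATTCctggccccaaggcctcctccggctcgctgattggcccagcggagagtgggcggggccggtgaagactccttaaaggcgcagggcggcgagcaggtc
The element was found in Hspa1a, Hspa1b, Hspb1, Jun, Fosl2 and Sgk1 and in 6.69% of all windows.

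Hspa5 encodes BiP, the chaperone of the endoplasmic reticulum and the classical target of the unfolded protein response. It had the highest mean of the 38 genes, with 411 TPM in B, 298 TPM in C and 946 TPM in D. On normalised counts its log2 ratio in D was 0.72 ± 0.37 (edgeR adjusted p = 0.32). It was 0.11 once the trend in length and GC was taken out. Hspa8 exceeded Hspa5 in B and C, and Hspa5 exceeded Hspa8 in D, with log2 ratios of Hspa5 over Hspa8 of -0.31, -0.61 and 0.88. Atf4, the effector of the integrated stress response, which is regulated mainly in translation, stood at 259 TPM in B, 199.6 TPM in C and 194 TPM in D. Its target Ddit3 (CHOP) stood at 51.9 TPM in B, 34.8 TPM in C and 32.7 TPM in D. Atf4 exceeded Ddit3 by a log2 ratio of 2.47 ± 0.13 (SD, n = 3), the steadiest of the 13 pairs computed. Atf3, the injury marker of sensory neurons and a common dissociation gene, was low, at 2.68 TPM in B, 1.77 TPM in C and 2.94 TPM in D. Hspa5 was the only gene of the 33 with an ER stress element in the window, found in 0.11% of all windows, and its 200 bases before the start (chr2:34771890-34772089, plus strand) are shown with that element, a TGACGT and an AP-1 site in capitals.
Hspa5: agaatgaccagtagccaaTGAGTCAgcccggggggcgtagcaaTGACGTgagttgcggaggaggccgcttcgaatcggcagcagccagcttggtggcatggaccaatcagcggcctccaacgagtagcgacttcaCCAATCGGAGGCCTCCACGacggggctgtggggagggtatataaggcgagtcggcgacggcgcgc
The ER stress element is the longest run of capitals, 65 to 47 bases before the start.

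Gadd45 proteins link stress signals to growth arrest and DNA repair, and Gadd45g is also linked to neurogenesis. Gadd45g stood at 94.9 TPM in B, 138 TPM in C and 48.0 TPM in D and was the leading family member in every library. Gadd45g made up 86.3% of the summed Gadd45 TPM in B and 87.8% in C, but 60.9% in D. Gadd45a, a p53 target, stood at 13.01 TPM in B, 17.2 TPM in C and 28.8 TPM in D. Gadd45b was low and even, at 1.84 to 2.10 TPM. Ddit4, the mTOR inhibitor induced by hypoxia and energy stress, stood at 7.44 TPM in B, 13.5 TPM in C and 6.31 TPM in D.

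The next comparison asks whether 1 pool stood apart from the other 2. The low-count filter passed 33 of the 38 genes. It can pass a gene on 1 library alone, and Fosl1, Egr3, Nr4a3, Hspa1a and Hspb1 did not pass. Set against B and C, library D had 15 of the 33 higher and 18 lower, with a median log2 ratio of -0.41 against -0.02 over all genes tested. No gene passed edgeR's quasi-likelihood test at a Benjamini-Hochberg adjusted p of 0.05 in D, neither among the 33 nor among all 15727 (0%). At an unadjusted p under 0.05, 5 of 33 were higher in D, against 11.2% of all genes, and 2 of 33 were lower, against 8.22%. These are near the background.

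The 5 higher genes in D were Fosb, Egr1, Btg1, Fos and Nr4a1. Egr1 had a log2 ratio of 2.35 ± 0.62 (approximate SE; edgeR adjusted p = 0.20) and Fosb one of 2.90 ± 0.92 (edgeR adjusted p = 0.21). The ratio was 1.66 ± 0.43 for Btg1, 1.62 ± 0.59 for Fos and 1.54 ± 0.54 for Nr4a1. The 2 lower genes were Gadd45g, with -1.99 ± 0.56 (edgeR adjusted p = 0.20), and Ier3, with -1.51 ± 0.54. DESeq2 called 2 of 27 genes with an adjusted p, Egr1 higher and Gadd45g lower, against 5.89% of all genes. Without the low-count filter edgeR called 5 of 38, Fos, Fosb, Egr1 and Btg1 higher and Gadd45g lower, against 6.51% of all genes. Over the 4 alternative settings the adjusted p ranged from 0.00090 to 0.31 for Egr1, from 0.0011 to 0.32 for Fosb, from 0.016 to 0.33 for Fos, from 0.027 to 0.44 for Btg1 and from 0.033 to 0.49 for Gadd45g. For each of the 7 genes D lay on the same side of B and of C taken singly. The 7 were picked for their difference in D, so this is no separate support. For Fos the log2 ratio was 1.11 against B and 2.43 against C.

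In library C, 19 of the 33 genes were higher and 14 lower, with a median log2 ratio of 0.21 against -0.11 over all genes tested. edgeR called 123 of 15727 genes (0.782%) and none of the 33. At an unadjusted p under 0.05, 2 of 33 were higher, against 4.22% of all genes, and 3 of 33 were lower, against 2.69%. The higher genes were Ier2, with a log2 ratio of 2.91 ± 0.86 (edgeR adjusted p = 0.077), and Junb, with 2.85 ± 0.97 (edgeR adjusted p = 0.21). The lower genes were Fosb, with -3.99 ± 1.30 (edgeR adjusted p = 0.15), Egr1, with -2.51 ± 1.02, and Btg2, with -1.99 ± 1.00. DESeq2 called Ier2 alone of 32 genes, against 1.16% of all genes. The adjusted p of Ier2 ranged from 0.029 to 0.29 over the 4 alternative settings.

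Library B, set against C and D, had 10 of the 33 genes higher and 23 lower, with a median log2 ratio of -0.35 against -0.18 over all genes tested. edgeR called no gene of 15727 (0%), and none of the 33 had an unadjusted p under 0.05, against 0.362% higher and 0.744% lower over all genes. DESeq2 called 1 gene of 23553 (0.00425%), which was not among the 38. On normalised counts, 14 of the 33 genes were highest in C and 14 in D, against 33.04% and 41.8% of all genes tested, and 5 in B, against 25.2%. The fits share all libraries, so their results are not separate.

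**Figure D3:**
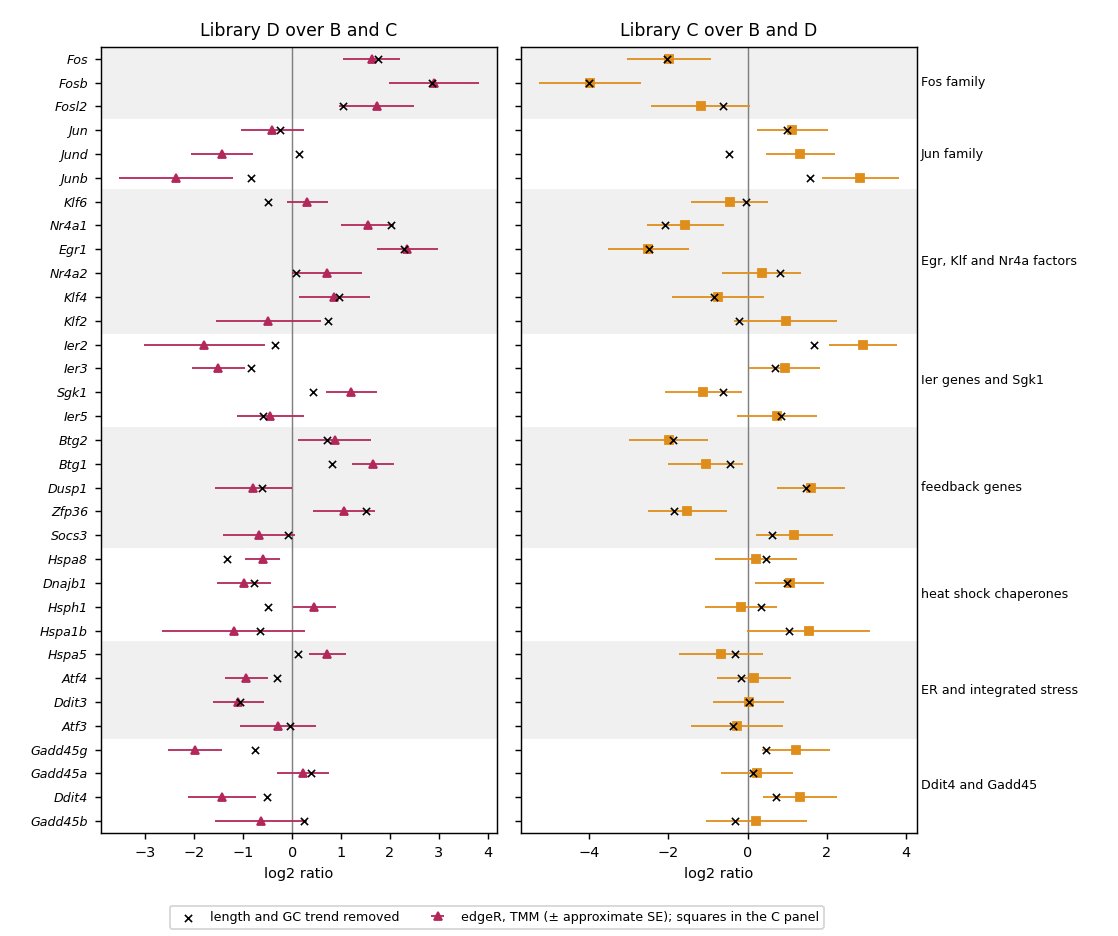
Log2 ratio of library D over B and C (left) and of C over B and D (right) for the 33 genes tested; triangles and squares with bars are edgeR values ± approximate SE, crosses the values after the length and GC trend was taken out. Fos, Fosb, Egr1 and Nr4a1 lie right of 0 in D and left of 0 in C with both, while the crosses of Jund, Ier2 and Gadd45g lie closer to 0 than their symbols.

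Gene length and GC content moved with these differences. Over the 33 genes the median length was 2743 bases and the median transcript GC 54.1%, against 3509 bases and 49.6% over all genes tested. Ier2, Junb and Jund, all higher in C, have 60.9, 62.6 and 67.1% GC. Ier3 and Gadd45g, the 2 lower in D at an unadjusted p under 0.05, have lengths of 1131 and 1173 bases. With a smooth trend in length and GC removed, the log2 ratio of Jund in C went from 1.34 to -0.48, that of Junb from 2.85 to 1.59 and that of Ier2 from 2.91 to 1.69. That of Gadd45g in D went from -1.99 to -0.77. For Egr1 the log2 ratio with the trend removed was 2.27 in D and -2.49 in C. It was 1.75 and -2.04 for Fos and 2.86 and -4.02 for Fosb. Some ratios grew. For Nr4a1 the log2 ratio went from 1.54 to 2.01 in D and from -1.57 to -2.09 in C. For Zfp36 it went from 1.05 to 1.51 in D and from -1.53 to -1.85 in C. That of Btg1 in D went from 1.66 to 0.80 and that of Ier3 from -1.51 to -0.85. In C with this trend removed edgeR called 284 of 15727 genes (1.81%) and 1 of the 33, Fosb (edgeR adjusted p = 0.0060, with a range of 0.0060 to 0.16 over the 4 alternative settings). The median log2 ratio of the 33 genes was then -0.04 in D, against -0.30 over all genes tested, and -0.04 in C, against 0.06.

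**Figure D4:**
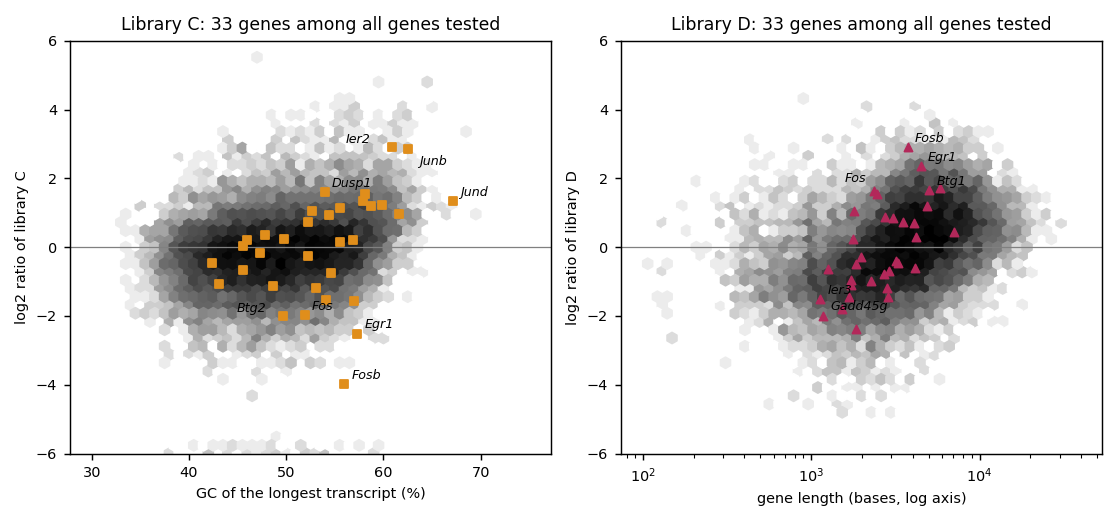
Log2 ratio of library C against the GC content of the longest transcript (left) and of library D against gene length (right); grey hexagons count all genes tested, darker for more genes, and genes with a ratio beyond 6 on either side are not drawn. Ier2, Junb and Jund lie at the GC-rich end among genes higher in C, Fosb and Egr1 lie below 0 in C, and Ier3 and Gadd45g lie below 0 in D at the short end.

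Markers of other cell types also moved with the libraries. The 10 glia and Schwann cell precursor markers summed to 3065 TPM in B, 1525 TPM in C and 4835 TPM in D. Most of the sum was Fabp7, with 2487, 1088 and 2017 TPM, and Ednrb, with 375, 254 and 2138 TPM. The sum had the order of Fos, but by TPM Fabp7 was highest in B, and Sox10, Foxd3 and S100b were lowest there. In every library 10 of 10 were detected, and 8 of 10 had a positive log2 ratio in D. The 12 neuron markers summed to 37382, 29646 and 24134 TPM. Mesenchyme markers (6 of 10 detected in every library) summed to 56.7, 47.1 and 292 TPM, of which Postn held 193 TPM in D. The higher sum in D was not shared by the whole list: 5 of 10 had a positive log2 ratio in D and 5 a negative one. Erythroid markers (7 of 10 detected) summed to 2869.5, 1579 and 408 TPM and sympathetic and chromaffin markers (6 of 11 detected) to 355, 258 and 122 TPM, both lowest in D. Macrophage markers (5 of 10 detected) summed to 40.2 to 58.1 TPM and endothelium markers (1 of 8 detected) to 5.26 to 17.6 TPM. No marker of these lists was at 0 in B, Tek was at 0 in C, and Gata1, among the erythroid markers, was at 0 in D. The part of any of these cells in the early gene levels was not tested, and in pooled RNA more cells of a type and more RNA per cell cannot be told apart.

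Related genes outside the 38 were read from lists of early, heat shock, unfolded protein, p53 and axon injury genes. Their counts of positive and negative log2 ratios are given without the same share of all genes tested. The trend in length and GC was not taken out of these ratios. Of 32 other early response genes 16 were detected in every library, and of the 28 tested 22 had a positive log2 ratio in D and 7 had one in C. None passed the adjusted edgeR test in any library, and 7 of 28 had an unadjusted p under 0.05 in D, where 11.2% of all genes had one and were higher and 8.22% had one and were lower. Egr2, a zinc finger factor of Schwann cells, had 19, 17 and 315 counts and the highest log2 ratio in D, 3.34 ± 0.62. Rhob, a small GTPase gene, had the highest mean level, with 62.9 TPM in B, 69.8 TPM in C and 136 TPM in D. Ier5l, with 47, 102 and 24 counts, had the most negative log2 ratio in D, -2.54, and a GC content of 63.8%. Of the 19 regulators upstream (serum response factor, ETS cofactors, CREB family and JNK pathway genes) all were detected, 15 had a positive and 4 a negative log2 ratio in D, and none passed. Elk3 had the highest, 2.29, and Mapkapk2 the lowest, -0.52. Map2k4, a kinase of the JNK pathway, had the highest mean level, with 10.8 TPM in B, 30.5 TPM in C and 28.7 TPM in D.

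Of the other chaperone genes all 24 matched were detected, 10 with a positive and 14 with a negative log2 ratio in D, and none passed in any library. Hsp90ab1, the constitutive cytosolic Hsp90, led with 3581 TPM in B, 2483 TPM in C and 3853 TPM in D. On normalised counts its log2 ratio was -0.35 in D and 0.49 in B. Hsf2, a heat shock factor, had the highest log2 ratio in D, 2.04, and Fkbp4, an Hsp90 cochaperone, the lowest, -1.91. Of 26 other unfolded protein and integrated stress genes 23 were detected, and 15 had a positive log2 ratio in D and 15 in C. Xbp1, the transcription factor spliced by IRE1, alone passed, in C, where its log2 ratio was 3.52 ± 0.92 (approximate SE). It stood at 18.9 TPM in B, 210.1 TPM in C and 31.7 TPM in D, so this compares 1 library with the others. Calr led this list at 572, 407 and 1033 TPM.

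All 15 p53 and oxidative stress genes were detected and none passed. Trp53 stood at 138 TPM in B, 85.7 TPM in C and 172 TPM in D, with log2 ratios of -0.08 in D and 0.46 in B. Mdm2, its target, had the highest log2 ratio in D, 1.36, and Bbc3 the lowest, -2.22. Of 8 genes induced in sensory neurons by axon injury 4 were detected and none passed. Gal led with 144 TPM in B, 101 TPM in C and 39.7 TPM in D. Flrt3 had the highest log2 ratio in D, 2.41, and Vip, with 24, 47 and 2 counts, the lowest, -4.93.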

How the data were processed

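RNA was measured in 3 libraries of 1 group. The authors deposited raw read counts, CPM and RPKM per Ensembl gene. In the deposited tables CPM is each count scaled to the file total, and the deposited RPKM is that CPM per kilobase of the listed length (other column). Subread, featureCounts 1.4.5 and GRCm38.p2 are named in the submitters' processing notes. No source used here gives the annotation release, strand setting or read filters. Symbols were matched for 40254 of 41388 identifiers.

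TPM was computed from counts and length. Each library was set against the other 2 by the quasi-likelihood test of edgeR 4.0.16, after filterByExpr and TMM scaling, with Benjamini-Hochberg adjustment over all genes tested. The spread of the lone library is taken to equal that of the pair. Standard errors are the log2 ratio divided by the root of F. Total counts ranged from 11666241 to 20966139. The limit given for a count of 0 is 3 counts and covers counting error only, because no molecular identifiers separate PCR copies. Alternatives were DESeq2 1.42.0, its size factors, no filter, TPM ratios, other detection limits, each library left out and a length and GC trend per library (mgcv 1.9.3, GENCODE M21 transcripts) as an offset.

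The genes, lists and tests were chosen with earlier results of these data known. Values are printed for genes at a mean of 5 TPM or more, those with an unadjusted p under 0.05, and others as ranges or counts. Fosl2 and Atf3, outside that rule, are also given per library. In the other pathway lists the gene with the highest mean was named, with the genes that passed or, where none did, those with the highest and lowest log2 ratio in D. Promoters of Fos, Jun and Hspa5 were shown by rule. Those of Btg2, Dusp1 and Hspa1a and the CRE core were chosen after their values were seen. Klf6 and Dnajb1, also named by the rule, held no match and are not shown. A planned comparison of protein sequences was not made. Hspa14 was not matched.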

Additional observations from a re-analysis of the deposited data

How the results depend on the processing

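The count of genes detected in every library was 30 at a limit of 0.5 TPM and 20 at 5 TPM, and 28 to 30 with 1 library left out. Of 39 alternatives to the counts and medians, 30 stayed within the tolerance, which was 1.5-fold for a count and the spread between libraries for a median. Genes called in D, 0 in the edgeR fit, came to 5 with no filter and 2 with DESeq2. In C, 0 became 1 with DESeq2 (Ier2) and 1 once the trend in length and GC was taken out (Fosb). The cause was not tested. The median log2 ratio in D, -0.41, was 0.31 on the scale of TPM + 0.1, where all genes tested moved up by a median of 0.66, and ranged from -0.57 to 0.21 with B or C left out. In B it was -0.35, and -0.68 on the TPM scale, with a range of -0.21 to -0.00045 with a library left out. In C it was 0.21, and -0.24 on the TPM scale. Of 84 alternatives for the 12 log2 ratios with an unadjusted p under 0.05, none reversed. Of the 48 that give an adjusted p, 9 passed. The 12 ratios were picked from these same data, so the lack of reversals is no separate support. Leaving out a library leaves 1 against 1, a value with no test.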
